A study of Mus musculus with 58 samples.

Results

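The transcripts of the mitochondrial genome were followed over the day in the retinas of diabetic and control mice. They were taken as all rows of the count table whose symbol starts with mt-, which gave 37 of 52459 genes: 13 protein genes, 2 rRNA genes and 22 tRNA genes. The diabetic mice were male heterozygous Ins2Akita mice on the C57BL/6 background, in which misfolded insulin damages the beta cells of the pancreas and leads to hyperglycemia, and the controls were their wild-type male littermates. Both groups were 4 months old, were kept in 12 h of light and 12 h of dark, and were sampled at ZT1, ZT5, ZT9, ZT13, ZT17 and ZT21, in which ZT gives the hours since the lights went on. All mice were perfused with cold buffer, and at the night points the tissue was handled under dim red light. Total RNA of single retinas was depleted of rRNA before sequencing, so the 2 mitochondrial rRNAs were read only as far as they were left by this step. The 30 control libraries were divided over the 6 time points as 5, 6, 5, 5, 5 and 4, and the 28 diabetic libraries as 5, 5, 5, 4, 4 and 5. The mutation is carried by all tissues of the diabetic mice, and not by the retina alone. The study calls its samples biological replicates, and the labels do not name the mouse of each library, so p-values measure the spread between these libraries.

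The mitochondrial genome is a small circular DNA that is present in many copies per cell. It encodes subunits of complexes I, III, IV and V of the respiratory chain, by which cells make ATP with oxygen, and the rRNAs and tRNAs with which mitochondrial ribosomes translate them. Each strand is transcribed as a long precursor, which is cut at the tRNAs that lie between the other genes, so that transcripts of a strand are made together and then differ by their processing and decay. The retina is known for a high use of oxygen and for a dense packing of mitochondria in the inner segments of rods and cones.

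Counted reads were from 7773117 to 22147398 in a library (median 15406440). Markers of rods, cones, Muller glia, bipolar cells, amacrine cells and ganglion cells were all present, and the summed rod markers reached from 515317 to 767530.5 normalized counts in control and from 499570.0 to 703960.4 in diabetic libraries. Over all time points, 2 of 5 cone markers were called lower in diabetic retinas (edgeR, adjusted p-value under 0.05), against 1.41% of all genes. Of the other 5 cell types, 0 markers were called. Lens markers were also present, with 4 of 6 called lower and summed levels up to 31866 in control and 694 in diabetic libraries. Compared by 15086 nuclear genes, 5 libraries stood apart from the others, with median correlations to the other libraries of 0.9815 or less against 0.9835 or more in the rest. They were control replicates 1 and 3 of ZT17, control replicate 4 of ZT9, diabetic replicate 3 of ZT17 and diabetic replicate 5 of ZT13. The tests below between genotypes and among time points were also made without them, as an alternative chosen after seeing the data.

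Mitochondrial genes took a median of 1.55% of the counted reads, with a range from 0.675% to 2.17% over the 58 libraries. The share was 1.55% ± 0.293 in the control group (SD, n = 30) and 1.54% ± 0.292 in the diabetic group (SD, n = 28). Protein genes made up nearly all of it, with 1.52% ± 0.29 (SD, n = 58) of the counted reads. The rRNAs had 0.0207% ± 0.0213 and the tRNAs 0.00118% ± 0.00036 (SD, n = 58). Of the 13375508 mitochondrial reads, 98.6% lay in 7 protein genes, and mt-Co1 alone, a core subunit of cytochrome c oxidase, had 33.7%.

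The other 6 protein genes were hardly counted at all. They were mt-Co2 and mt-Co3, which are subunits of cytochrome c oxidase, mt-Atp6 and mt-Atp8, which are subunits of ATP synthase, and the complex I subunits mt-Nd3 and mt-Nd4l. Over all 58 libraries, mt-Nd3 had 210 reads, mt-Co2 had 48, mt-Co3 had 19, mt-Atp6 had 14, mt-Atp8 had 8 and mt-Nd4l had 4. All 6 lie next to each other, between mt-Co1 and mt-Nd4. The same stretch of the mitochondrial genome, from base 6390 to base 11042 (4653 bases), is spanned by 7 annotated nuclear pseudogenes on the minus strand of chromosome 1, chr1:24611535-24616188 in GRCm38. These are Gm29216, Gm28661, Gm10925, Gm28437, Gm28438, Gm10222 and Gm28439, and their identity to the mitochondrial genes was from 99.7% to 100% over the aligned bases.

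The pairs below are shown because they hold the bases by which a read could, or could not, be told apart between the mitochondrial gene and its nuclear copy. They are the first 60 bases of mt-Nd3 (chrM:9459-9518, plus strand) with those of Gm28438 (chr1:24613060-24613119, minus strand), and a stretch of mt-Co2 (chrM:7323-7382, plus strand) with that of Gm28661 (chr1:24615196-24615255, minus strand), all 5′ to 3′ from the Gencode transcripts of GRCm38. Capitals mark the single difference, T3C, counted from 1 at the 5′ end of the gene.
mt-Nd3: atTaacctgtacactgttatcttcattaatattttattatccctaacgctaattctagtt
Gm28438: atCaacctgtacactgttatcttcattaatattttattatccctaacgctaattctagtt
mt-Co2: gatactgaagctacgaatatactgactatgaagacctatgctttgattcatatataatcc
Gm28661: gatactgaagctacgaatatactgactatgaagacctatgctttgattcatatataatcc

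In the 345 bases that mt-Nd3 shares with Gm28438, the base at position 3 was the single mismatch. The 681 bases shared by mt-Co2 and Gm28661 had none, as had the 678 bases of mt-Atp6 in Gm10925, the 783 bases of mt-Co3 in Gm28437 and the 294 bases of mt-Nd4l in Gm10222. The nuclear copies were not high in counts either. The 7 copies together had a median of 46.5 reads in control libraries (range 17 to 125) and of 41.5 reads in diabetic ones (range 21 to 92). How the counting treated reads that map equally well to several places is not stated in the sources used here, and its part in the low counts was not tested.

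In all, 11 of the 37 genes lie wholly inside the spanned stretch, the 6 protein genes and the tRNA genes mt-Ts1, mt-Td, mt-Tk, mt-Tg and mt-Tr. They had 311 reads together, or 0.00233% of the mitochondrial reads. The plot of reads by gene shows the drop from mt-Co1 to the genes next to it and the return at mt-Nd4. The 5 tRNA genes and most of mt-Atp8 are covered by their position in the stretch alone, since their nuclear sequence was not compared here. Of the 2 genes that reach into it, mt-Co1 has 483 of its 1545 bases inside and mt-Nd4 has 876 of 1378. Nuclear copies of the other genes were less alike, with 97.6% identity of mt-Co1 to Gm13340, 95.2% of mt-Nd5 to Gm4076, 93.6% of mt-Nd6 to Gm11408 and 92.9% of mt-Cytb to Gm11410. It was 96.7% for mt-Nd2 with Gm13339 over 510 bases and 97.2% for mt-Tt with Gm43841 over 36 bases. Levels of mt-Co1 and mt-Nd4 are given below per annotated length and per base outside the stretch, and the 6 protein genes with few counts were not compared between groups.

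**Figure D1:**
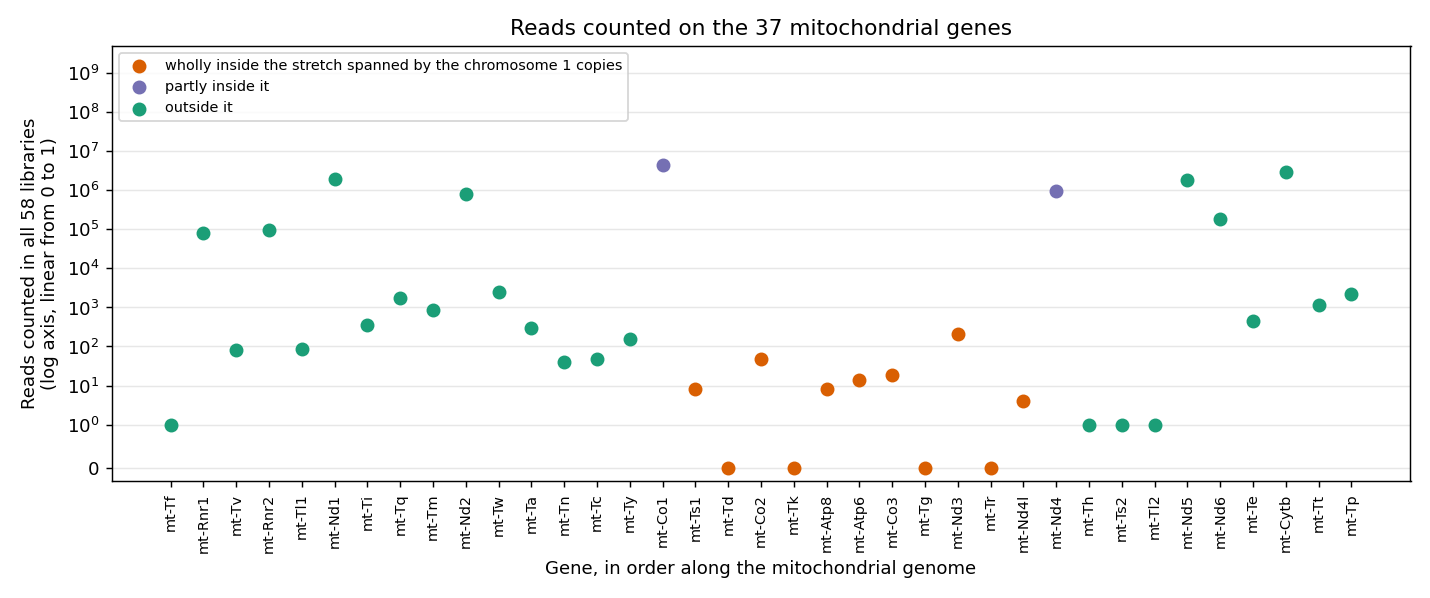
Reads counted in all 58 libraries on each of the 37 mitochondrial genes, in their order along the genome, on a log axis that is linear from 0 to 1. The 11 genes that lie wholly inside the stretch spanned by the chromosome 1 copies had from 0 to 210 reads each, while mt-Co1 and mt-Nd4 on their sides had 4513140 and 959884.

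The levels of the 7 counted mRNAs differed widely. On the scale of counts normalized by DESeq2 size factors, the mean over the 58 libraries was 75088 ± 13552 (SD) for mt-Co1 and 49806 ± 9768 for mt-Cytb, the mitochondrial subunit of complex III. For the complex I subunits it was 32491 ± 7306 for mt-Nd1, 29968 ± 5799 for mt-Nd5, 15926 ± 2913 for mt-Nd4, 13153 ± 3452 for mt-Nd2 and 3022 ± 577 for mt-Nd6. Only mt-Nd6 of these is read from the other strand.

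Per 1000 bases of annotated length, mt-Co1 had 48601 ± 8771 normalized counts (SD, n = 58), mt-Cytb 43537 ± 8538 and mt-Nd1 33951 ± 7635. They were followed by mt-Nd5 with 16429.6 ± 3179, mt-Nd2 with 12671 ± 3325, mt-Nd4 with 11557 ± 2114 and mt-Nd6 with 5823 ± 1113. The means of mt-Co1 and mt-Cytb, and those of mt-Nd2 and mt-Nd4, were closer than their spread, although within a library mt-Co1 was above mt-Cytb in 55 of 58 and mt-Nd2 above mt-Nd4 in 46 of 58. When only bases outside the spanned stretch were taken as length, mt-Co1 had 70705 ± 12760.4 and mt-Nd4 had 31724 ± 5803 per 1000 bases. The place of mt-Nd4 then changed from the sixth to the fourth, below mt-Nd1 in 48 of 58 libraries and above mt-Nd5 in all 58.

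The tRNA genes had 9988 reads in all libraries. The 5 with the highest mean were mt-Tw for tryptophan with 43.5 ± 21.7 normalized counts (SD, n = 58), mt-Tp for proline with 37.8 ± 10.6, mt-Tq for glutamine with 29.3 ± 11.5, mt-Tt for threonine with 19.2 ± 4.57 and mt-Tm for methionine with 14.1 ± 6.07. Of these, mt-Tw and mt-Tm lie directly at the ends of mt-Nd2 (chrM:3914-4951), at chrM:4950-5016 and chrM:3845-3913, and mt-Tt (chrM:15289-15355) follows mt-Cytb (chrM:14145-15288). Reads of a gene and its overlapping or opposite neighbour may not be told apart, since the overlap mode and the use of strand in the counting are not stated in the sources used here. Outside the spanned stretch, mt-Tf, mt-Th, mt-Ts2 and mt-Tl2 had 1 read each.

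With a filter on low counts, 16 of the 37 genes could be tested with edgeR among 18814 genes. These were the 7 counted mRNAs, both rRNAs and the tRNAs mt-Te, mt-Ti, mt-Tm, mt-Tp, mt-Tq, mt-Tt and mt-Tw. The remaining 21 genes, 6 protein and 15 tRNA genes, had from 0 to 298 reads over all libraries and were not tested in these edgeR fits. Of them, mt-Nd3 in control retinas and mt-Ta in both genotypes entered the JTK_CYCLE test for a daily rhythm given below.

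Over all time points, the mitochondrial mRNAs had nearly the same level in diabetic and control retinas. The level of mt-Co1 was from 34343 to 99548 normalized counts in control libraries, with a median of 75755, and from 33967 to 98672 in diabetic libraries, with a median of 76965. For mt-Cytb the lowest, median and highest values were 19945, 50425 and 73057 in control and 24502, 48494 and 68560.5 in diabetic libraries. The ranges of the groups overlapped over nearly their whole length for both genes.

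The log2 fold change, given throughout as diabetic minus control, was 0.04 ± 0.07 (SE) for mt-Co1, -0.05 ± 0.08 for mt-Cytb, -0.03 ± 0.09 for mt-Nd1 and -0.07 ± 0.11 for mt-Nd2. It was -0.06 ± 0.07 for mt-Nd4, -0.06 ± 0.07 for mt-Nd5 and 0.00 ± 0.07 for mt-Nd6. The 95% intervals of all 7 lay between -0.29 and 0.19, and edgeR's quasi-likelihood test with Benjamini-Hochberg adjustment gave adjusted p-values of 0.764 or more. None of the 16 tested mitochondrial genes was called at an adjusted p-value under 0.05, by edgeR or by DESeq2, against 571 of all 18814 genes (3.03%) by edgeR. At an unadjusted p-value under 0.05 the count was 1 of 16, for mt-Rnr1, against 15.4% of all genes. The median log2 fold change was -0.03 over the 16 genes and 0.00 over all genes tested.

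**Figure D2:**
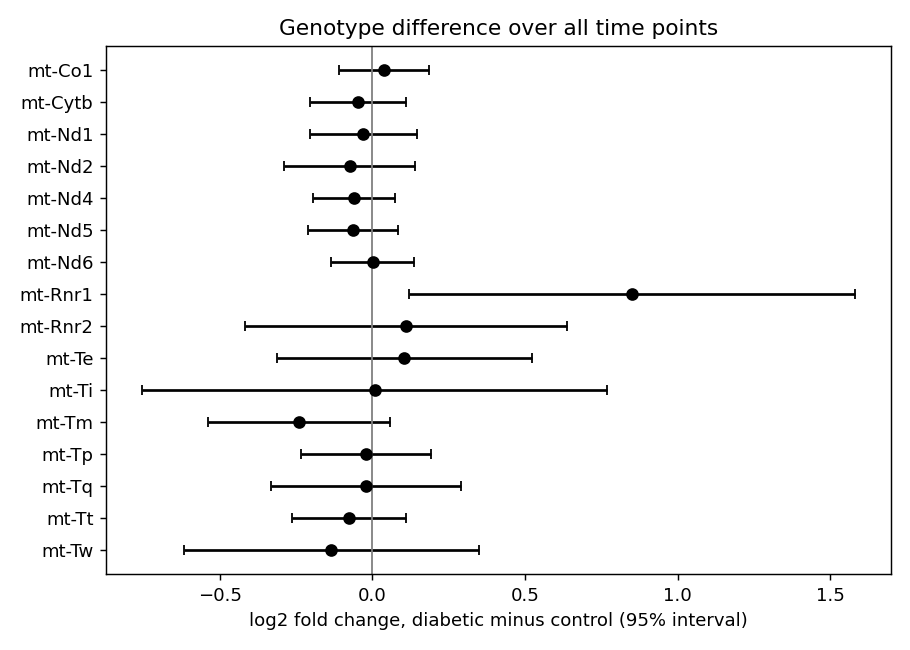
Difference between diabetic and control retinas over all time points for the 16 tested mitochondrial genes, as the log2 fold change from edgeR (points) with an approximate 95% interval derived from its test statistic (bars). The 7 mRNAs lie between -0.07 and 0.04, and the interval of mt-Rnr1, from 0.12 to 1.58, is the single one that does not reach 0.

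At single time points, the result for the mRNAs was similar. Their log2 fold changes lay between 0.01 and 0.12 at ZT1 and between -0.15 and 0.01 at ZT5. They were from -0.08 to 0.05 for ZT9, from -0.17 to -0.12 for ZT13, from 0.04 to 0.32 for ZT17 and from -0.27 to -0.03 for ZT21. The direction at ZT13 turned without the 5 libraries that stood apart, of which diabetic replicate 5 is one of ZT13, with values from -0.07 to 0.08 and 6 of the 7 mRNAs above 0 in place of 0. Without them the values were from 0.06 to 0.21 for ZT17 and from -0.21 to 0.05 for ZT9. None was past an unadjusted p-value of 0.05 in edgeR's test, where the smallest was 0.108, at ZT17, and 0.119, at ZT21, without the 5 libraries. At these 6 time points, 0 of the 16 tested mitochondrial genes was called by edgeR or by DESeq2. The number of all 18814 genes called by edgeR was largest at ZT17, with 32 (0.17%), and it was 2 (0.0106%) at ZT1, 4 (0.0213%) at ZT5 and 1 (0.00532%) at ZT9, while ZT13 and ZT21 had 0 (0.0%). Unadjusted p-values under 0.05 were seen for mt-Te at ZT5, where 6.06% of all genes had one, and for mt-Rnr1 at ZT13 and ZT17, where the share was 4.41% and 8.84%.

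Over the day, none of the 7 mRNAs was called as changing in either genotype. The sum of the 7 mRNAs in control retinas was 220505 ± 25663 normalized counts (SD, n = 5) for ZT1, 229704 ± 40069.5 (n = 6) for ZT5 and 219691 ± 49104 (n = 5) for ZT9. For the night points ZT13, ZT17 and ZT21 it was 233143 ± 15851 (n = 5), 185435 ± 66317 (n = 5) and 239326 ± 35481 (n = 4). In diabetic retinas it was 226312 ± 22589.8 (SD, n = 5), 219392 ± 37007 (n = 5), 218752 ± 20081 (n = 5), 209438 ± 77916 (n = 4), 215514 ± 74309.8 (n = 4) and 215370.4 ± 29641 (n = 5) at the same time points. In control retinas the highest and lowest means differed by less than the SD at ZT17, and in diabetic retinas by less than the SD at any time point.

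The low mean of control retinas at ZT17 rested on replicates 1 and 3, and without them it was 225051 ± 48842 (SD, n = 3). Without diabetic replicate 5 the mean at ZT13 was 242033 ± 52265 (n = 3), and without diabetic replicate 3 the mean at ZT17 was 246384 ± 50647 (n = 3). In the test of any difference among the time points, adjusted p-values of the 7 mRNAs were 0.64 or more in control and 0.993 or more in diabetic retinas (edgeR). A cosine with a period of 24 h fitted to the mRNAs had a relative amplitude, which is the half-height of the wave over the mean, between 2.29% and 6.96% in control retinas, with SEs from 4.5 to 6.9, and between 2.25% and 5.08% in diabetic retinas, with SEs from 4.98 to 7.33. In the empirical JTK_CYCLE test for a daily rhythm, p-values were from 0.572 to 0.988 in control and from 0.66 to 0.981 in diabetic retinas.

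**Figure D3:**
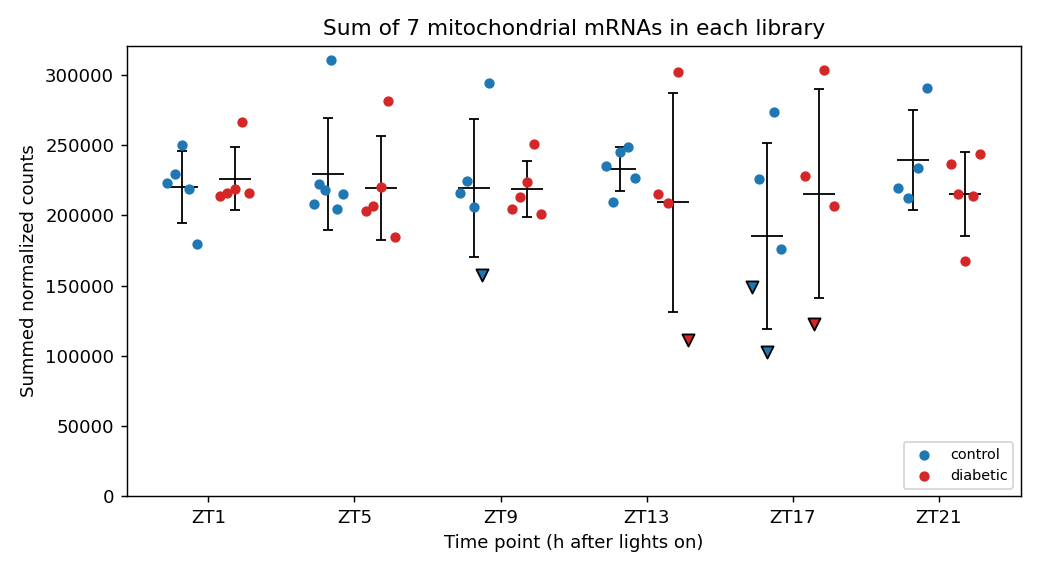
Sum of the normalized counts of the 7 counted mitochondrial mRNAs in each library, by time point and genotype, with the mean (horizontal line) and SD (bars). Triangles mark the 5 libraries that stood apart by their nuclear genes, which had the 5 lowest sums of all 58 libraries, from 103098 to 157575.

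The 5 libraries that stood apart by nuclear genes had the 5 lowest sums of the 7 mRNAs. The sums were 103098 in control replicate 3 and 148923 in control replicate 1 of ZT17, 122904 in diabetic replicate 3 of ZT17, 111653 in diabetic replicate 5 of ZT13 and 157575 in control replicate 4 of ZT9. The lowest of the other 53 libraries had 167678. For mt-Nd6 these 5 libraries had from 2056 to 3357 normalized counts against a median of 2865 in the others, so that 2 of the 5 were below that median and 1 was below every other library. By contrast, all 5 were below every other library for mt-Nd2, mt-Cytb and mt-Co1, and 3 of the 5 were for mt-Nd1, mt-Nd4 and mt-Nd5. The tRNA mt-Tw was also low in them, from 0 to 15.6 normalized counts, against a median of 51 in the others. The summed subunits of the respiratory chain that are encoded in the nucleus (71 genes) were from 67479 to 74925 normalized counts in these libraries and had medians of 64675 in control and 62772 in diabetic libraries. The mean log2 level of the 7 mRNAs had Pearson correlations between -0.144 and 0.096 with the summed markers of rods, cones, Muller glia, bipolar, amacrine and ganglion cells, pigment epithelium, lens, blood and skeletal muscle, and none of these 10 had an adjusted permutation p-value under 0.05, by Pearson or by Spearman. Without the 5 libraries these correlations were wider, from -0.21 for cones to 0.401 for amacrine cells, with 0.328 for Muller glia, 0.318 for rods and 0.246 for bipolar cells. The values without the 5 libraries were not tested, so a relation to the cell type markers is not excluded. What sets the 5 libraries apart was not tested.

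Some libraries were high instead. The library with number 4 had the highest sum of its group in 9 of the 12 groups, with values up to 310429 in control retinas of ZT5, where the highest of the others was 222093. In diabetic retinas of ZT17 it had 303550.3 and the highest of the others had 228486. The labels do not say what a replicate number stands for. With or without the 5 libraries, the summed mRNAs of the genotypes overlapped, with 230363 ± 31662 for control (SD, n = 27) and 225553 ± 32434 for diabetic retinas (SD, n = 26) without them.

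The mRNAs moved together across libraries. Over the 58 libraries, log2 levels of the 6 mRNAs that share a strand had Pearson correlations from 0.869 to 0.974 and Spearman correlations from 0.743 to 0.963 in their 15 pairs. The largest adjusted permutation p-value of these pairs was 2.5e-05 by Pearson and 2.63e-05 by Spearman, adjusted over 50 relations tested in all. Without the 2 farthest libraries of each pair, r was still from 0.811 to 0.97, and without the 5 libraries that stood apart it was from 0.768 to 0.977. For the 6 pairs of mt-Nd6 with these mRNAs, r was from 0.446 to 0.718 and rho from 0.494 to 0.641, with permutation p-values after adjustment of 0.00124 or less. It was from 0.675 to 0.847 without the 5 libraries, from 0.294 to 0.599 in control and from 0.589 to 0.83 in diabetic retinas. All pairs share the scaling of their library, and mt-Nd6 overlaps mt-Nd5 at its end.

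**Figure D4:**
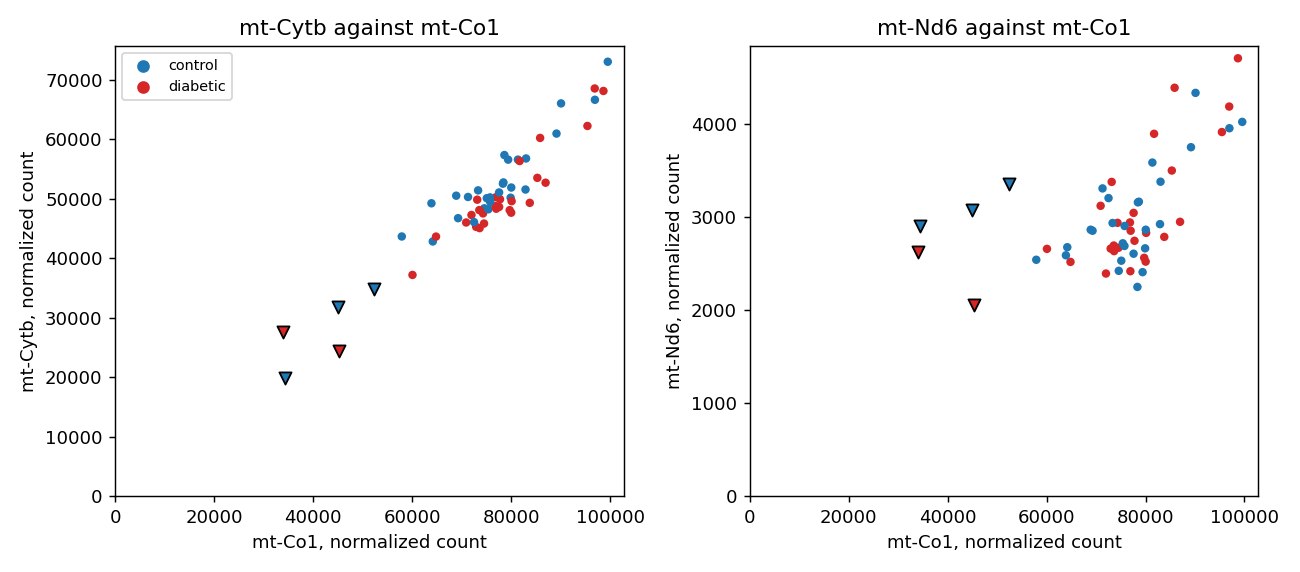
Normalized counts of mt-Cytb (left) and mt-Nd6 (right) against mt-Co1 in each of the 58 libraries, coloured by genotype, with triangles for the 5 libraries that stood apart. mt-Cytb falls with mt-Co1 in these libraries, while mt-Nd6 there stays between 2056 and 3357.

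The rRNA of the small ribosomal subunit, mt-Rnr1, was higher at night in some libraries. In diabetic retinas, the day points had normalized counts of 1201.1, 704.9, 497.1, 501.3 and 349.6 (ZT1), of 500.9, 580.7, 627.5, 352.8 and 409.1 (ZT5) and of 698.1, 875.8, 577.6, 617.7 and 829.3 (ZT9). The night points had 408.9, 789.5, 6974.7 and 12735.3 (ZT13), 1104.0, 1753.6, 8224.6 and 1110.1 (ZT17) and 805.8, 862.0, 3190.6, 409.5 and 768.9 (ZT21). At ZT17 all 4 libraries were above all 10 of ZT5 and ZT9, but the ZT1 library with 1201.1 was above those of ZT17 with 1104.0 and 1110.1. At ZT13 the libraries were split, with 2 within the range of the day points and 2 far above.

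The means in diabetic retinas were 494 ± 115 (SD, n = 5) at ZT5, 719.7 ± 129.9 (n = 5) at ZT9, 5227 ± 5841 (n = 4) at ZT13 and 3048 ± 3464 (n = 4) at ZT17. The difference among the 6 time points was past the threshold in diabetic retinas, with an adjusted p-value of 0.000843 (edgeR). Without diabetic replicate 5 the mean at ZT13 was 2724 ± 3686 (n = 3), and without diabetic replicate 4 the mean at ZT17 was 1323 ± 373 (n = 3). In fits that left out a single library, the adjusted p-value stayed between 6.15e-05 and 0.015 (edgeR), the highest without diabetic replicate 5 of ZT13. With replicates numbered 1 to 3 alone, an alternative chosen after seeing the data that leaves out all 3 of the highest diabetic libraries, it was 0.556.

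In control retinas, the values of mt-Rnr1 at ZT13 were 677.6, 643.7, 7543.5, 451.3 and 469.2, those at ZT17 were 508.3, 493.1, 1228.0, 543.3 and 1242.8, and those at ZT21 were 719.2, 625.9, 1879.9 and 443.7. The day points of control retinas were between 241.1 and 1336.2, so that replicate 3 of ZT13 and replicate 3 of ZT21 were above all of them and the other night libraries were within their range. Without replicate 3, the mean at ZT13 was 560.5 ± 117 (SD, n = 4) in place of 1957 ± 3125 (n = 5). Over all time points the lowest, median and highest values were 241, 635 and 7544 in control and 349.6, 737 and 12735 in diabetic libraries, so the ranges overlapped.

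No difference among the time points was called in control retinas for mt-Rnr1, with an adjusted p-value of 0.451 (edgeR). The log2 fold change of diabetic over control was 0.85 ± 0.36 (SE) over all time points, with an unadjusted p-value of 0.0233 and an adjusted one of 0.229 (edgeR). With ZT as a term in the fit it was 0.49 with an adjusted p-value of 0.424 (edgeR). In the fit by genotype alone, it was 1.22 without control replicate 3 of ZT13, with an adjusted p-value of 0.0289, without diabetic replicate 5 of ZT13 it was 0.47 with 0.545, without the 5 libraries that stood apart it was 0.42 with 0.591, and with replicates 1 to 3 alone it turned to -0.33 with 0.924 (edgeR). At single time points it was 1.44 ± 0.71 (SE) at ZT13 and 1.93 ± 0.72 at ZT17, with adjusted p-values of 1.0 and 0.336 (edgeR), and without the 5 libraries it was 0.52 at ZT13 and 2.20 at ZT17, with 1.0 and 0.504. The difference in rhythm between the genotypes had an unadjusted p-value of 0.0164 and an adjusted one of 1.0 (edgeR), which were 0.0894 and 1.0 without the 5 libraries, so a daily change in diabetic retinas alone was not shown. In this test 0 of the 16 mitochondrial genes, by edgeR or DESeq2, and 0 of 18814 genes (0.0%), by edgeR, were called, with 1 of 16, against 3.39% of all genes, at an unadjusted p-value under 0.05.

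The rRNA of the large subunit, mt-Rnr2, had a mean of 1634 ± 1261 normalized counts in the control group (SD, n = 30) and 1758 ± 1263 in the diabetic group (SD, n = 28), a log2 fold change of 0.11 ± 0.26 (SE), which turned to -0.09 without the 5 libraries that stood apart. It was high in the same libraries as mt-Rnr1 in part, with 6837 in control replicate 3 and 5816 in diabetic replicate 5 of ZT13. Over the 58 libraries the rRNAs had a Pearson correlation of 0.645 and a Spearman correlation of 0.64, with adjusted permutation p-values of 2.5e-05 and 2.63e-05, and r was 0.581 without the 2 farthest libraries. With the 7 mRNAs the rRNAs had Pearson correlations from -0.19 to 0.284 (14 pairs), of which none was past an adjusted permutation p-value of 0.05, with 0.0598 as the smallest. Spearman correlations of these pairs were from -0.136 to 0.351, and 1 pair was past it, mt-Nd2 with mt-Rnr2, with a rho of 0.351 and an adjusted permutation p-value of 0.016.

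Rows with rRNA-like sequence from the nuclear genome were compared with mt-Rnr1, since cytosolic rRNA is removed in the same depletion step. Log2 levels of mt-Rnr1 over the 58 libraries had a Pearson correlation of 0.54 with Lars2, whose row holds an rRNA-like repeat, 0.471 with Gm42418, 0.396 with CT010467.1 and 0.369 with Gm26917. The adjusted permutation p-values were 0.000591, 0.0024, 0.00932 and 0.0113. Without the 2 farthest libraries, r was 0.597 for Lars2, 0.24 for Gm42418, 0.151 for CT010467.1 and 0.147 for Gm26917, so the last 3 relations rest on those libraries. Spearman correlations were 0.538, 0.235, 0.222 and 0.172 in the same order, with adjusted permutation p-values of 0.000114, 0.151, 0.176 and 0.341. Of the list's 5 rows found in the table, 1 was at 0 in all libraries, and their summed level was from 251053 to 608268 in control and from 315050.2 to 873229 in diabetic libraries, with the highest in a library that stood apart. In these libraries the amount of mt-Rnr1 in the retina and the amount left by the depletion cannot be told apart.

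Among the tRNAs, mt-Te for glutamate differed over the day in diabetic retinas. It lies on the minus strand at chrM:14071-14139, next to mt-Nd6 (chrM:13552-14070), and its sequence is given here because it is the tRNA with a call, 5′ to 3′ from the Gencode transcript of GRCm38.
mt-Te: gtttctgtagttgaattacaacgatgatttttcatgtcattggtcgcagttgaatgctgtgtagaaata

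The normalized counts of mt-Te in diabetic libraries were 10.7, 6.92, 4.6, 6.6 and 2.77 (ZT1), 6.63, 11.8, 19.7, 6.49 and 9.87 (ZT5), and 17.7, 11.2, 8.59, 10.2 and 15.4 (ZT9). In the night they were 2.32, 1.23, 1.65 and 4.8 (ZT13), 7.25, 5.48, 4.41 and 3.77 (ZT17), and 13.7, 5.57, 7.26, 8.55 and 6.51 (ZT21). All libraries of ZT9 were above all of ZT13 and of ZT17. The counts behind these values are small, with 230 reads in all diabetic libraries and, over the 58 libraries of both groups, from 1 to 20 reads per library and 447 reads, so single values carry a large counting error.

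The mean of mt-Te in diabetic retinas was 12.6 ± 3.8 (SD, n = 5) at ZT9 and 2.5 ± 1.6 (SD, n = 4) at ZT13, and the difference among time points had an adjusted p-value of 0.00835 (edgeR). In fits without a single library the adjusted p-value was from 0.00533 to 0.0309, and with replicates 1 to 3 alone it was 0.0923 (edgeR). In control retinas the mean was 10.6 ± 4.86 (SD, n = 5) at ZT9 and 4.66 ± 1.87 (SD, n = 5) at ZT13, also with the higher value at ZT9, and the adjusted p-value among time points was 0.153 (edgeR). With replicates 1 to 3 alone it was 0.0362 in control retinas. The difference in rhythm of mt-Te between genotypes had an unadjusted p-value of 0.54 (edgeR).

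In all, 2 of the 16 tested mitochondrial genes, mt-Rnr1 and mt-Te, differed among time points in diabetic retinas by edgeR and by DESeq2, and 1896 of all 18814 genes (10.1%) by edgeR. In control retinas it was 0 of 16 by both tools, against 1717 of 18814 genes (9.13%) by edgeR, and 1 of 16, mt-Te, at an unadjusted p-value under 0.05, against 21.8% of all genes. Without the 5 libraries that stood apart, mt-Rnr1 and mt-Te were again the genes called in diabetic retinas, with adjusted p-values of 0.0209 and 0.0111 (edgeR), against 9.2% of all genes, and 0 were called in control retinas, against 7.11%. The share of 2 in 16 is near the background, so it is no result about mitochondrial genes as a group.

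**Figure D5:**
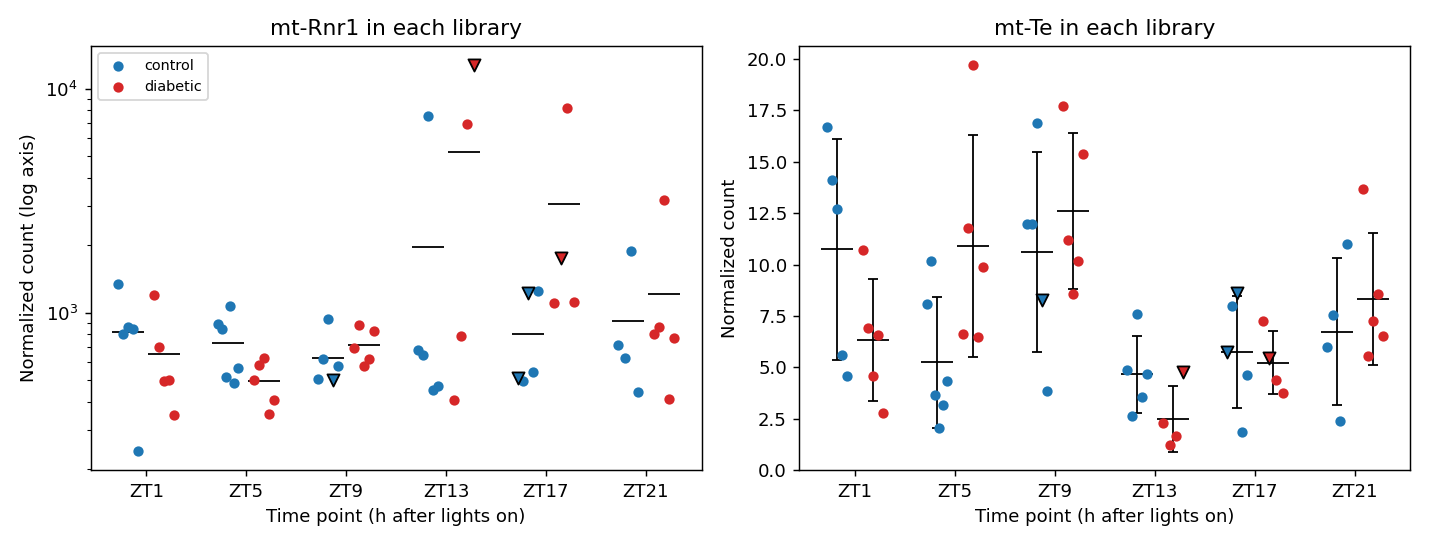
Normalized counts of mt-Rnr1 (left, log axis) and mt-Te (right) in each library by time point and genotype, with the mean (horizontal line) and, on the right, the SD (bars), and triangles for the 5 libraries that stood apart. Diabetic libraries of mt-Rnr1 reach 12735 at ZT13 and 8225 at ZT17 and 1 control library reaches 7544 at ZT13, while diabetic mt-Te lies between 1.23 and 4.8 at ZT13 and between 8.59 and 17.7 at ZT9.

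In the JTK_CYCLE test, a gene was called rhythmic by the study's p-value criterion, below 0.05 without adjustment, and by a minimum fold, which was taken here between the highest and lowest library and gave the same mitochondrial calls when taken between time point means. In control retinas 0 of the 18 expressed mitochondrial genes were rhythmic, against 4169 of 19086 genes (21.8%), and the smallest p-value was 0.0951, for mt-Tt. In diabetic retinas 2 of 16 were rhythmic, against 4567 of 19145 genes (23.9%). These were again mt-Rnr1, with a p-value of 0.00371, and mt-Te, with a p-value of 0.000934. The acrophase, the time of the peak of the fitted cosine, was ZT14.8 ± 1.3 h (SE) for mt-Rnr1 and ZT5.45 ± 1.35 h for mt-Te, and the relative amplitude was 108% ± 45.4 (SE) and 40.8% ± 15.5. With the value of 108% for mt-Rnr1 the fitted cosine passes below 0, so it is a poor description of its level. In control retinas the p-values were 0.858 for mt-Rnr1 and 0.714 for mt-Te, with relative amplitudes of 36.9% ± 35.1 and 19.7% ± 15.2.

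Genes of the nucleus that act on the mitochondrial genome were compared with it from a list of 41 genes for its replication, transcription, RNA processing and RNA decay, all of which could be tested. Over all time points, 1 was higher in diabetic retinas and 0 were lower, with a median log2 fold change of 0.00, against 306 (1.63%) higher and 265 (1.41%) lower of all genes tested. It was Polg, the catalytic subunit of the mitochondrial DNA polymerase, with 898 ± 66.4 normalized counts in the control group (SD, n = 30) and 968 ± 76.4 in the diabetic group (SD, n = 28), a log2 fold change of 0.11 ± 0.03 (SE) with an adjusted p-value of 0.0263 (edgeR). At single time points, 0 of the 41 were called, against 0.0% to 0.17% of all genes.

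Among the time points, 5 of the 41 differed in control and 6 in diabetic retinas, with the background of all genes as above. Without the 5 libraries that stood apart, it was 3 in control retinas, against 7.11% of all genes, and 7 in diabetic retinas, against 9.2%, and Polg was again the 1 gene called between genotypes, with a log2 fold change of 0.11 and an adjusted p-value of 0.0314 (edgeR), against 3.47%. Tfb2m, which opens the promoters of the mitochondrial genome for its RNA polymerase, had 129 ± 4.89 normalized counts (SD, n = 5) at ZT9 and 91.9 ± 15 (SD, n = 5) at ZT17 in control retinas, with an adjusted p-value of 0.00427, and one of 0.00363 in diabetic retinas (edgeR). Without the 5 libraries its control means were 128 ± 4.81 (SD, n = 4) at ZT9 and 101 ± 8.83 (SD, n = 3) at ZT17, and its adjusted p-values were 0.161 in control and 0.00396 in diabetic retinas (edgeR). Fastkd2, a protein of mitochondrial RNA granules, had 234 ± 10.2 (SD, n = 6) at ZT5 and 146 ± 45 (SD, n = 5) at ZT17 in control retinas, and adjusted p-values of 0.0159 in control and 0.0229 in diabetic retinas (edgeR). Its control means were 234 ± 10.2 (SD, n = 6) and 177 ± 20.2 (SD, n = 3) without these libraries, with adjusted p-values of 0.252 and 0.0358 (edgeR). Elac2, which cuts the 3′ ends of tRNAs from the precursor, had 411 ± 12 (SD, n = 5) at ZT9 and 316 ± 27.9 (SD, n = 4) at ZT17 in diabetic retinas, with an adjusted p-value of 0.00169, and one of 0.121 in control retinas (edgeR), which were 8.02e-05 and 0.00284 without them. Angel2 had 914 ± 45.9 (SD, n = 5) at ZT9 and 775 ± 43.3 (SD, n = 5) at ZT17 in control retinas, with an adjusted p-value of 0.00677, and one of 0.0486 in diabetic retinas (edgeR). They were 0.1 and 0.139 without these libraries, with control means of 922 ± 48.7 (SD, n = 4) at ZT9 and 805 ± 19.6 (SD, n = 3) at ZT17. The calls of Tfb2m, Fastkd2 and Angel2 in control retinas were thus lost without the libraries that stood apart, in a fit that has 3 in place of 5 control libraries at ZT17, while Elac2 in control retinas was called without them and not with them. Of the 71 nuclear genes for subunits of the respiratory chain, 0 differed between genotypes over all time points, against 3.03% of all genes, with a median log2 fold change of -0.03. Among time points, 1 (Ndufa8, adjusted p-value 0.0162, edgeR) differed in control retinas, against 9.13%, and 0 in diabetic retinas, against 10.1%. The JTK_CYCLE test, without adjustment, called 17 of the 71 rhythmic in control and 8 in diabetic retinas, against 21.8% and 23.9% of all genes. Of the 41 genes that act on the mitochondrial genome it called 15 in control and 16 in diabetic retinas. Without the 5 libraries, Ndufa7 and Ndufb5 were called between genotypes, each with a log2 fold change of -0.11 and with adjusted p-values of 0.0489 and 0.0335 (edgeR), or 2 of 71 against 3.47% of all genes, and in control retinas Ndufb2 (0.0364) was called in place of Ndufa8 (0.125). These 4 genes were named after their values were seen.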

How the data were processed

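Per the labels and the methods of the study, the authors aligned the reads with STAR (version 2.7.4a) to the mouse genome GRCm38.p5, annotated with Gencode M15, counted them per gene with HTSeq (version 0.11.1) and deposited raw read counts, 1 column per library, without normalization or filtering. The strand setting and the treatment of reads with several matches are not given in the sources used here. The 37 mt- rows were members, and all tests were fitted over all genes and adjusted over all of them. Differences between genotypes and among time points were tested with edgeR (version 4.0.16, R 4.3.3, TMM, quasi-likelihood), by genotype alone for the comparison across all time points and otherwise in 1 fit of 12 groups, with DESeq2 (version 1.42.0) as an alternative. The SEs and 95% intervals of log2 fold changes were derived from edgeR's fold change and F statistic, so they are approximate. A rhythm was tested with the empirical JTK_CYCLE, re-implemented with 30 waves of 24 h against 1000000 shuffled series, on counts divided by DESeq2 size factors, for genes with a median above 4 in a genotype. Nuclear copies were found by comparing Gencode M21 transcripts of GRCm38 with BLAST (version 2.17.0), from 90% identity over 30 bases. Correlations over libraries used log2 of normalized counts plus 0.5 and 100000 permutations.

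All 13 protein genes and both rRNAs are named, of the tRNAs the 5 with the highest mean and those called. Of the list of 41 genes for mitochondrial gene expression, those called between genotypes and the 3 with the smallest p-value among time points in each genotype are named. Of other genes, the 5 most and the 5 least alike to the mRNAs are named, except for a result that is not reported here. The members, lists and rules were chosen with earlier results of these data known. The methods were tested on simulated data.

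Alternatives were other size factors, no filter on low counts, DESeq2, a replicate block, a time point term, adjusted p-values and means for the rhythm, an edgeR cosine test and each library left out. The alternatives without 5 libraries and with replicates 1 to 3 were chosen after seeing the data. The depth, from 7773117 to 22147398 reads, gave many reads for the mRNAs but at most 97 per library for any tRNA, so tRNA values are less precise.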

Additional observations from a re-analysis of the deposited data

Results flagged for a closer look

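In each of the 12 groups of 4 to 6 libraries, the highest and lowest normalized counts of 15 mitochondrial genes were tested with Dixon's criterion for a library far from the others of its group. This found 28 libraries and genes in 180 groups, where chance gives about 9, and since the mRNAs move together the flags are not independent. Of the 28, 21 were in a library with replicate number 4, and 18 of the 19 for mRNAs.

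Control replicate 4 of ZT5 was far above the others for all 7 mRNAs, with 99548 for mt-Co1, 73057 for mt-Cytb, 47924 for mt-Nd1, 41672 for mt-Nd5, 22484 for mt-Nd4, 21719 for mt-Nd2 and 4024 for mt-Nd6. Diabetic replicate 4 of ZT1 was high for mt-Nd1 (41314), mt-Nd2 (16596), mt-Nd4 (20229) and mt-Cytb (60243). Diabetic replicate 4 of ZT5 was high for mt-Nd4 (20835), mt-Nd5 (38266) and mt-Cytb (62260.4), and that of ZT9 for mt-Nd5 (35358). Control replicate 4 of ZT21 was high for mt-Nd1 (46413) and mt-Nd6 (4336) and low for mt-Rnr2 (524). Diabetic replicate 4 of ZT13 was high for mt-Nd6 (4189) and mt-Tq (40.4), and that of ZT17 was high for mt-Rnr1 (8225).

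Control replicate 3 of ZT13 was high for mt-Nd2 (18469), mt-Rnr1 (7544), mt-Rnr2 (6837) and mt-Tp (68.4). High values of mt-Rnr1 were also found in control replicate 3 of ZT9 (935) and diabetic replicate 3 of ZT21 (3191), and mt-Rnr2 was high in control replicate 5 of ZT17 (3880.1). None of the 28 was in the 5 libraries that stood apart by nuclear genes.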

How the results depend on the processing

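With other size factors, without mitochondrial rows in the scaling, without the filter, with DESeq2 and with the replicate block, the counts of mitochondrial genes called between genotypes and among time points were as in the report. With replicates 1 to 3 alone, the count among time points was 1 in control (mt-Te, against 16.1% of all genes) and 0 in diabetic retinas (against 4.02%), and 1 was rhythmic in diabetic retinas (mt-Te, against 16.2%). Without the filter 1 gene was rhythmic in control retinas (mt-Tc, against 14.9%), as was 1 by the edgeR cosine test with the replicate block (mt-Tm, against 27.5% of all genes). In diabetic retinas the cosine test at an unadjusted p-value called 3, with mt-Rnr2 added, against 26.5% of all genes, and 3 with the block, against 28.2%; after adjustment it called 1, mt-Rnr1, in either fit, against 12.4% and 14.4%. With each library left out, 0 to 1 genes were called between genotypes over all time points (1, mt-Rnr1, without control replicate 3 of ZT13, against 2.83% of all genes), 0 to 1 were rhythmic in control retinas (1, mt-Tt, without control replicate 5 of ZT17, against 20.8%) and 2 to 3 in diabetic retinas (against 20.8% to 25.9%), while the other counts did not change. The cause of these changes was not tested. The replicate numbers were not taken as pairing the libraries, since 9 of 26 pairs of the same number had no correlation over 0.1 (range -0.214 to 0.588). As a hint from the data, 17 of 26 did and 25 of 52 libraries correlated best with their own number. With the replicate block the log2 fold change of mt-Rnr1 over all time points was 0.65. With ZT as a term in the fit it was 0.49. Depth limits the tRNAs, and a gene with 0 reads may still have up to 3 reads' worth in a library.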

Other observations

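Across the 58 libraries, the nuclear genes most alike to the 7 mitochondrial mRNAs were Wasl, an activator of actin branching, Wac, Trappc6b, Fip1l1, a factor of mRNA polyadenylation, and Psip1, with Spearman correlations of 0.71, 0.68, 0.67, 0.66 and 0.66 to their mean log2 level among 11228 genes with a mean of at least 100 normalized counts. Among the least alike were Gcn1l1 with -0.56, Igf2r with -0.54, Flna, an actin cross-linker, with -0.52 and Tmem198b with -0.52. Without the 5 libraries that stood apart, the values of these genes were from 0.58 to 0.66 and from -0.47 to -0.41. They were chosen for their correlation and share the scaling of the libraries, so they are a description.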
